A study of Mus musculus with 15 samples.

Results

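The 33 mouse genes described here bear the symbols of proteins of the cytosolic ribosome or of their paralogs. They are the genes with a probe set annotated to 1 gene whose symbol is Rpl, Rps or Rplp followed by a digit, with 3 Rps6k kinase genes and 1 pseudogene left out. They come from 8251 genes that had such a probe set, and their 46 probe sets come from 12422 on the array after removal of the array controls. Each gene is represented by its brightest probe set over all 15 arrays. By symbol, 17 of the genes belong to the large subunit and 16 to the small subunit. Transcript levels were measured in olfactory epithelium on Affymetrix MG_U74Av2 arrays, each hybridised with 1 RNA pool made from 5 µg of RNA of each of 3 male C57Bl/6 mice aged 6 weeks. There were 5 groups of 3 arrays: untreated mice, mice 5 days after a sham operation, and mice 1, 5 and 7 days after OBX, in which both olfactory bulbs were taken out (bulbectomy). No transgene or mutation is named in the labels. The labels describe the arrays of a group as separate pools, so the spread between arrays is that between pools and not between single mice.

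Ribosomal proteins fold and stabilise the ribosomal RNA and line the paths that mRNA and the growing peptide take through the ribosome. Cells make them in near-equal amounts for assembly in the nucleolus, and growing or dividing cells make more ribosomes. Removal of the olfactory bulb takes away the target of olfactory sensory neurons, which then die and are replaced from basal progenitor cells of the epithelium, while macrophages enter and clear the debris.

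Many mRNAs of ribosomal proteins begin with an unbroken stretch of pyrimidines at the 5′ end, the 5′ TOP element, through which their translation is tied to growth signals. The RefSeq table of promoters (build GRCm38.p6) held 27 of the 33 genes. Windows of 30 bases, from 10 bases before the annotated start through the first 20 transcribed bases, are shown on the sense strand for 4 genes that rose at day 5 and for 2 that did not pass the test. Capitals mark the longest unbroken run of C and T in the window, to show how the genes resemble each other and differ at their starts.
Rpl13a: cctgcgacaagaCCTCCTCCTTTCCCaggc
Rpl7a: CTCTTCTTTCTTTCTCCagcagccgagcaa
Rps10: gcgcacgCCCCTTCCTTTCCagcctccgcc
Rps18: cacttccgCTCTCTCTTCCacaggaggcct
Rps27: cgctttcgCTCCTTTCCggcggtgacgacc
Rpl41: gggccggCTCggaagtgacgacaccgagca

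The window of Rpl13a lies at chr7:45128726-45128755 on the minus strand and holds a run of 14 bases. That of Rpl7a lies at chr2:26910797-26910826 on the plus strand and holds a run of 17 bases. Rps10 lies at chr17:27635225-27635254 and Rps18 at chr17:33955646-33955675, both on the minus strand, with runs of 13 and 11 bases. Rps27 (chr3:90213629-90213658, minus strand) has a run of 9 bases, and Rpl41 (chr10:128549149-128549178, minus strand) has none longer than 3. The windows shown do not stand for their groups. The 4 that rose have the longest runs among risen genes with a single window. Rplp0, Rpl6, Rps7 and Rps3 also rose and have longest runs of 7, 6, 5 and 2 bases. Rpl38 and Rpl39 did not pass and have runs of 10 and 8. A run of at least 8 was found in a window of 10 of the 27 ribosomal protein genes (37.0%) and of 3517 of all 27025 genes with a window (13%), searched on the sense strand and counting a gene with several annotated starts once. Such a run was present in 5 of the 11 genes that rose at day 5 and in 4 of the 12 tested genes with a window that did not pass. The letters CCGGAAG on either strand were found in the full windows, 250 bases before to 50 after the start, of 11 of the 27 genes (40.7%) and of 9.9% of all genes. These matches describe annotated sequence, and the annotated start need not be the one used in this tissue.

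Of the 33 genes, 25 were tested, because their probe set was called present by the array software on at least 3 of the 15 arrays. A set of 22 was present on every array. Rpl38 was present on 5 arrays, Rpl39 on 7 and Rpl39l, a paralog of Rpl39 known from testis, on 3. The probe sets of Rpl32, Rpl35a, Rps13, Rps14, Rps15, Rps20 and Rps29 were present on 0 arrays. That of Rps27l, a paralog of Rps27 known in human cells as a p53 target, was present on 1. Signals of these 8 genes, on the linear scale of the deposited values, ran from 8.4 for Rps15 on an OBX day 1 array to 1035.3 for Rps29 on a sham array. They give no level for the genes, since ribosomal protein mRNAs are present in every cell and other ribosomal protein genes were present on all arrays. A further 39 probe sets were annotated to a ribosomal protein gene together with other genes and are described only by counts.

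The arrays had percent present calls from 49.1 to 58.9. The ratio of 3′ to 5′ Gapdh signal ran from 0.687 to 0.803, and all arrays came from 1 chip lot. Untreated, sham and 2 of the OBX day 1 arrays were scanned on 1 day, and the third OBX day 1 array with all OBX day 5 and day 7 arrays on another, so OBX day 1 was the only group on both days and a term for scan day rests on its 3 arrays. OBX day 5 replicate 1 stood apart: limma's array weight was 0.069 for it and 0.561 to 4.03 for the others. It gave the highest signal of all 15 arrays for 14 of the 22 genes and the lowest for 3. On OBX day 5 replicate 3 the summed signal of 10 skeletal muscle genes was 12304, against 1698 to 2776 on the other arrays.

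The question addressed by the series is how transcript levels move while olfactory neurons die and are replaced. At day 5 after OBX, 17 of the 25 tested ribosomal protein genes had estimates above those after the sham operation and 8 had estimates below. By limma with Benjamini-Hochberg adjustment over all 7508 tested probe sets, 11 of the 25 tested genes rose and 0 fell, where 11.8% of all tested probe sets rose and 9.19% fell. The median log2 change was 0.31 over the 25 genes and 0.32 over the 22 genes present on every array, against -0.02 over all tested probe sets. In 14 of the 25 genes every OBX day 5 array was above every sham array, a pattern seen in 17.9% of all tested probe sets. The large subunit gave 6 rises among 12 genes present on all arrays (median 0.32) and the small subunit 5 among 10 (median 0.28), so rises were found in both subunits.

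Without OBX day 5 replicate 1, 9 genes rose and the median of the 22 genes present on all arrays was 0.21. Without OBX day 5 replicate 3, the array with the muscle signal, 13 rose and that median was 0.39. The calls over the whole array were 2054 without replicate 1 and 1638 without replicate 3, against 1578 with all arrays. Leaving out a sham array gave 5 rises without replicate 1, 6 without replicate 2 and 7 without replicate 3, and the calls over the whole array dropped from 1578 to 1108, 1077 and 1093. With scan day as a block, 1 gene rose, and the calls over the whole array dropped to 65 probe sets. Within the later scan day the mean of the 3 OBX day 5 arrays exceeded the single OBX day 1 array in 17 of the 22 genes, with a median log2 difference of 0.17. That scan day held no control arrays.

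**Figure D1:**
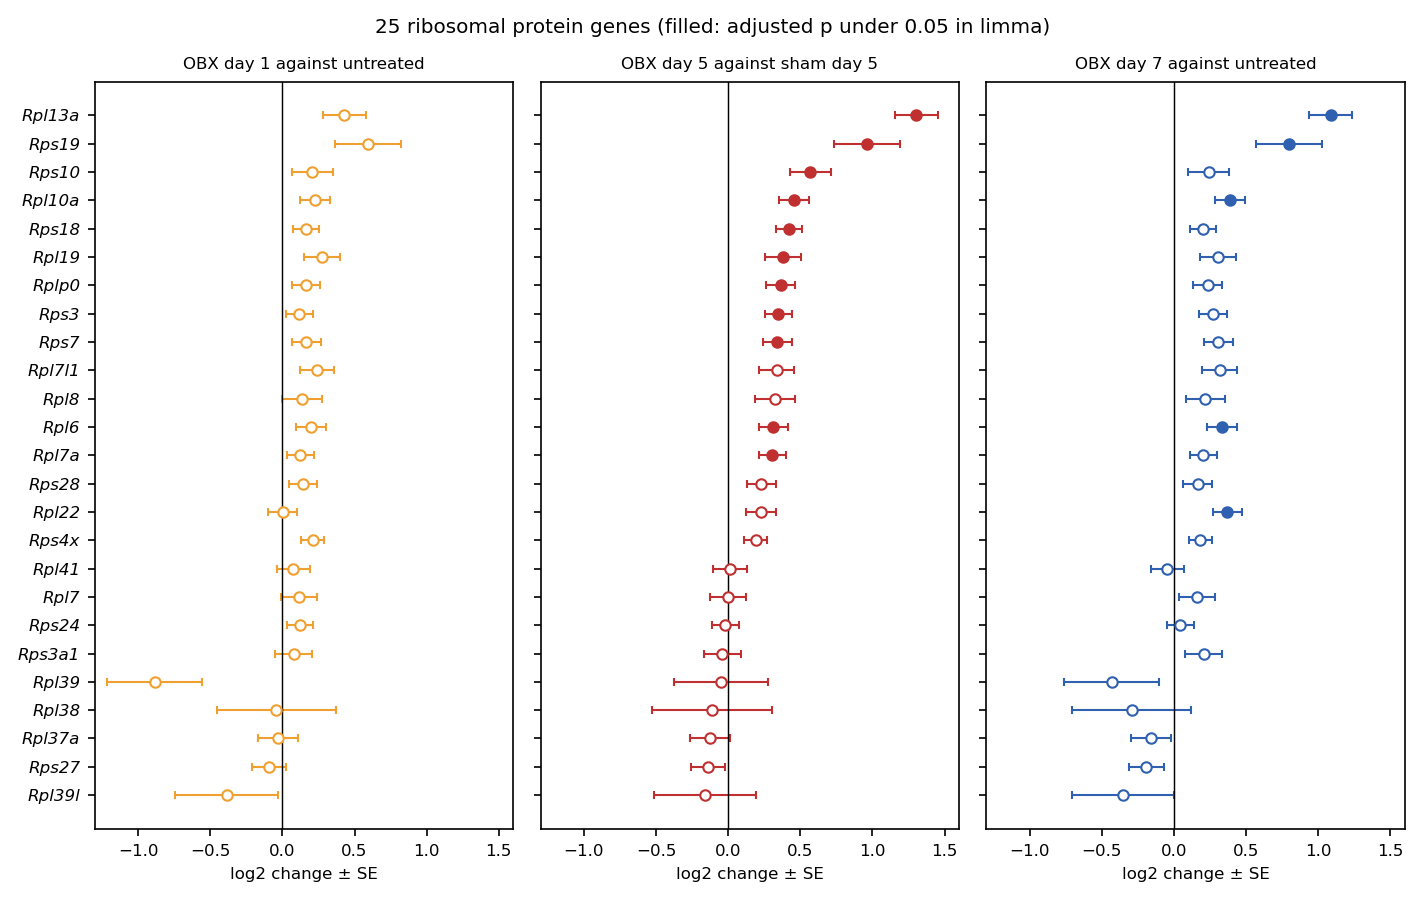
Log2 change ± SE of 25 ribosomal protein genes (rows, ordered by the day 5 change) at days 1, 5 and 7 after OBX against the stated control, with filled points for adjusted p under 0.05 in limma. At day 5, 11 points are filled and all lie right of 0, from 0.31 to 1.30; at day 1 no point is filled and at day 7, 5 are.

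Rpl13a changed most in log2 terms among the tested genes. Its probe set ranked at percentile 65.17 of the array by mean log2 signal. Among the genes present on every array, only the probe set of Rpl7l1 ranked lower. Whether the probe set measures the Rpl13a transcript alone was not tested. The Rpl13a protein sits on the outside of the large subunit and, in human myeloid cells, can leave the ribosome to silence inflammatory mRNAs. Its signal was 844.5, 913.6 and 1009.8 after sham surgery and 2644.3, 1907.4 and 2325.8 at OBX day 5. The lowest OBX day 5 array was well above the highest sham array. The untreated arrays read 770.4, 912.8 and 888.2 and the OBX day 1 arrays 1249.5, 1174.7 and 1037.2, which already lay above all 6 control arrays. The OBX day 7 arrays read 1660.7, 2166.5 and 1656.6 and overlapped those of day 5. The change at day 5 was 1.30 ± 0.15 (SE, n = 3 per group, 2.47-fold), with an adjusted p of 4.7e-05 by limma. Rpl13a passed in every one of the 28 alternative analyses of this comparison, with changes from 1.14 to 1.53. It was also the 1 gene of 25 that rose from OBX day 1 to OBX day 5 (0.98 ± 0.15, adjusted p 0.00095 by limma), where 3.96% of all tested probe sets rose.

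Rps19 had the next largest change. It is a small subunit protein needed for maturation of the small subunit's RNA, and human mutations in it cause Diamond-Blackfan anaemia. Its signal was 11857.6, 10453.2 and 11858.1 after sham surgery and 26702.0, 20508.3 and 19832.5 at OBX day 5. All OBX day 5 arrays were higher than all sham arrays. The untreated arrays, at 7105.4, 17539.4 and 10997.9, spread widely, and the second of them overlapped the OBX day 1 arrays (15246.6, 18356.4 and 16757.4). The change at day 5 was 0.96 ± 0.23 (1.95-fold, adjusted p 0.008 by limma).

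**Figure D2:**
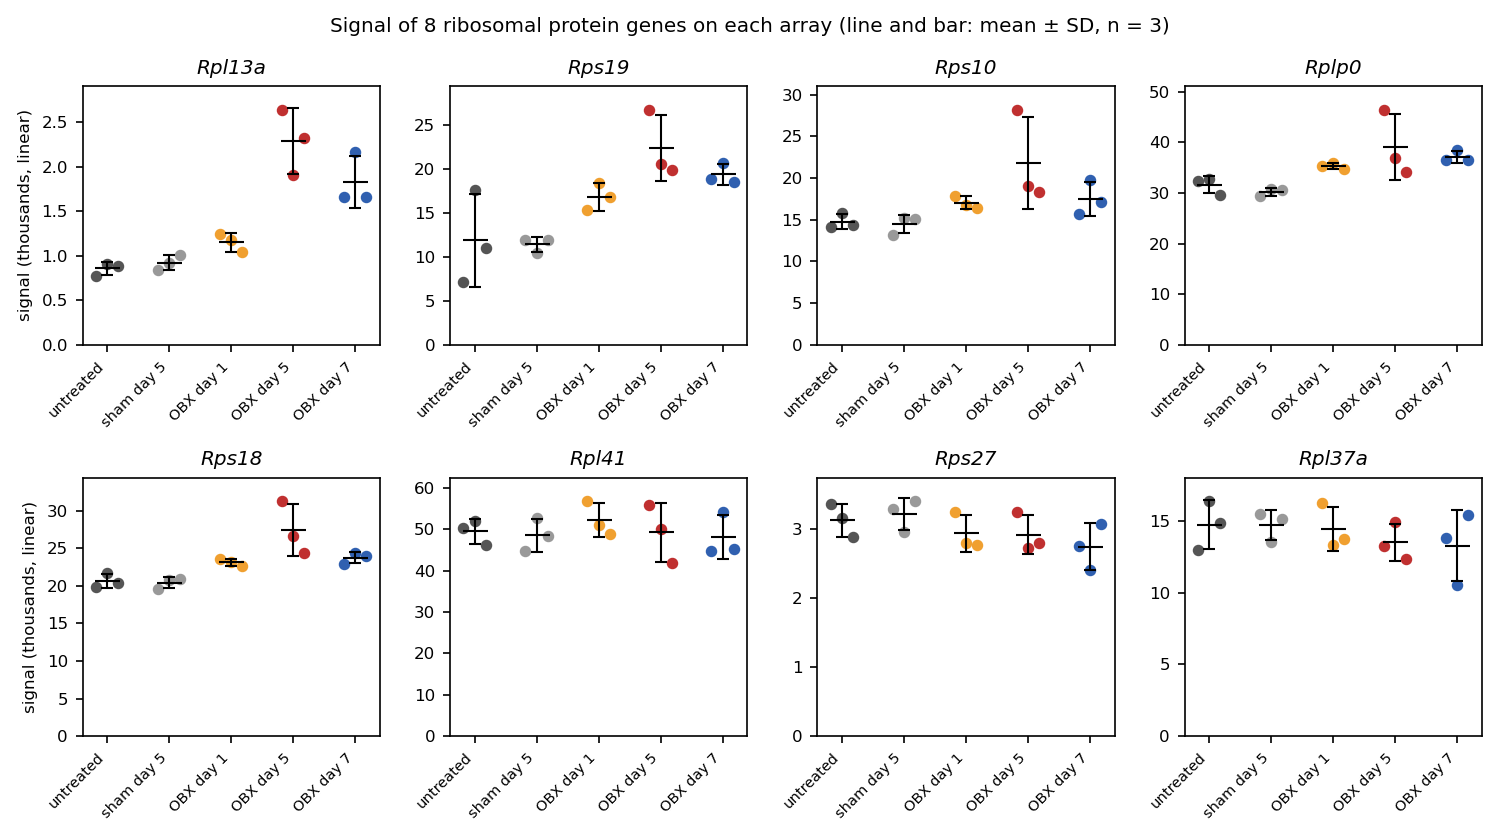
Linear signal, in the unit on the axis, of 8 ribosomal protein genes on each of the 15 arrays by group; points are arrays and bars are mean ± SD (n = 3). Rpl13a, Rps19, Rps10, Rplp0 and Rps18 are above sham on every OBX day 5 array, while for Rpl41, Rps27 and Rpl37a the groups overlap.

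The other large subunit genes that rose at day 5 had log2 changes between 0.31 and 0.45. Rplp0, the protein at the base of the stalk that recruits elongation factors, is often used as a reference gene for normalisation. Its signal was 29305.5, 30693.8 and 30525.6 after sham surgery and 46479.3, 36871.1 and 34062.9 at OBX day 5. The groups did not overlap, and the first OBX day 5 array stood above the other two. The change was 0.36 ± 0.10 (adjusted p 0.018 by limma) and 0.23 ± 0.07 without that array (adjusted p 0.022). Rpl10a, which sits on a mobile stalk beside the site where used transfer RNA leaves, read 13877.0, 13603.5 and 14730.2 after sham surgery and 22663.6, 17889.9 and 17639.2 at OBX day 5, again with no overlap. Its change was 0.45 ± 0.10 (adjusted p 0.0061), and its second probe set, of lower signal, gave 0.50 ± 0.12 (adjusted p 0.00729). Rpl19, Rpl6 and Rpl7a, which are structural proteins of the large subunit, rose by 0.38 ± 0.12 (adjusted p 0.042), 0.31 ± 0.10 (adjusted p 0.04) and 0.31 ± 0.09 (adjusted p 0.033). Rpl19 and Rpl6 no longer passed without OBX day 5 replicate 1, with adjusted p of 0.098 and 0.073.

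Among small subunit genes, Rps10 read 13187.7, 15170.9 and 15059.4 after sham surgery and 28218.7, 18999.7 and 18307.7 at OBX day 5. Rps10 is a protein of the head of the small subunit. All of its OBX day 5 arrays were above all sham arrays, with replicate 1 far above the other two. The change was 0.57 ± 0.14 (adjusted p 0.011 by limma), and 0.37 ± 0.10 without that array (adjusted p 0.012). Rps18, which also lies in the head and contacts the large subunit, read 19581.8, 20769.9 and 20934.0 after sham surgery and 31284.3, 26620.2 and 24431.0 at OBX day 5. Its groups did not overlap, and its change was 0.42 ± 0.09 (adjusted p 0.0043). Rps3, which lines the mRNA entry channel, rose by 0.35 ± 0.09 (adjusted p 0.017). Rps7, another structural protein of the small subunit, rose by 0.34 ± 0.10 (adjusted p 0.025).

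The remaining 14 tested genes did not pass at day 5, and they were not alike. Rpl8 (0.33 ± 0.14), Rpl7l1 (0.34 ± 0.12), Rpl22 (0.23 ± 0.10), Rps28 (0.23 ± 0.10) and Rps4x (0.19 ± 0.08), the X-linked form of Rps4, had positive estimates with adjusted p of 0.062 to 0.13. Rpl7l1, a paralog of Rpl7, had signals of 652.6, 594.4 and 575.6 after sham surgery and 795.0, 761.1 and 742.0 at day 5, without overlap. A second probe set of Rps28 gave 0.43 ± 0.10 with an adjusted p of 0.00767, so the call for this gene depended on the probe set.

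Rpl41, which encodes a very short basic peptide, read 44634.7, 52600.8 and 48481.0 after sham surgery and 55929.5, 49987.7 and 41749.0 at OBX day 5. The groups overlapped, and the change was 0.01 ± 0.12. Rps27 (-0.14 ± 0.12) and Rpl37a (-0.13 ± 0.14), both zinc-binding proteins, had small negative estimates with overlapping groups. Rpl38, Rpl39 and Rpl39l, not present on every array, had estimates of -0.11, -0.05 and -0.16 with standard errors of 0.33 to 0.41.

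Rpl7, Rps3a1 and Rps24 also had estimates near 0, from -0.04 to 0.00, and for these 3 genes OBX day 5 replicate 1 was the lowest of all 15 arrays. Rpl7 read 28466.2, 29783.0 and 30761.7 after sham surgery and 23284.6, 34963.9 and 31863.4 at OBX day 5. Rps3a1 read 25655.7, 25211.7 and 26946.3 after sham surgery and 19586.8, 30172.8 and 27060.9 at OBX day 5. In both genes OBX day 5 replicate 1 was below all sham arrays and the other OBX day 5 arrays were above them. Without that array the changes were 0.17 ± 0.09 for Rpl7 (adjusted p 0.16 by limma) and 0.14 ± 0.08 for Rps3a1 (adjusted p 0.23). The probe set used for Rps24 carries the same source accession as that of Rpl7, and the other Rps24 probe set had signals of 150.7 to 373.0, so the values given for Rps24 are uncertain.

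**Figure D3:**
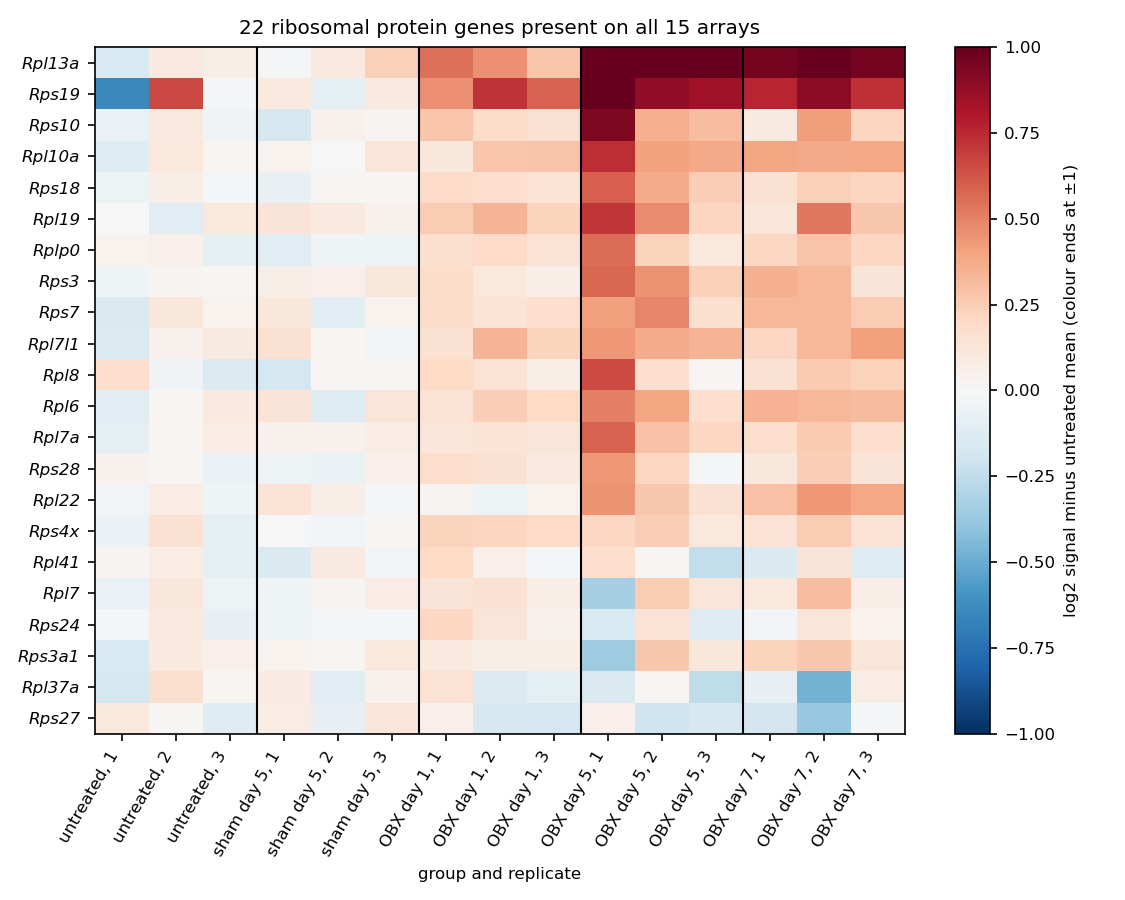
Log2 signal minus the untreated mean for 22 ribosomal protein genes (rows) on each of 15 arrays (columns, by group and replicate); colour ends at ±1. OBX day 5 replicate 1 is the reddest column for most genes, and the lowest for Rpl7, Rps24 and Rps3a1.

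At day 1 after OBX, 0 of the 25 genes passed in either direction by limma, where 1.8% of all tested probe sets rose and 0.666% fell. At an unadjusted p under 0.05 there were 6, of which Rpl39 was lower and 5 were higher, and 14.8% of all tested probe sets reached that level. The median log2 change against untreated was 0.14 over the 25 genes and 0.15 over the 22 present on all arrays, and the median over all tested probe sets was 0.00. In 13 of the 25 genes every OBX day 1 array was above every untreated array (15% of all tested probe sets), and in 1, Rpl39, every array was below (12%). The estimate farthest from 0 was that of Rpl39, -0.89 ± 0.33 (adjusted p 0.21 by limma), with present calls on 7 of the 15 arrays. Its signal was 164.7, 154.1 and 122.7 in untreated mice and 99.0, 54.4 and 91.7 at OBX day 1. All sham arrays of Rpl39 were also below all untreated arrays (-0.49 ± 0.33). Its OBX day 1 arrays overlapped the sham arrays (-0.40 ± 0.33). The largest positive estimates were 0.59 ± 0.23 for Rps19 (adjusted p 0.23) and 0.43 ± 0.15 for Rpl13a (adjusted p 0.17). Within the first scan day, the mean of the 2 OBX day 1 arrays exceeded that of the untreated arrays in 20 of the 22 genes, with a median log2 difference of 0.17. Without untreated replicate 2, 1 gene passed.

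At day 7, 5 of the 25 genes rose against untreated and 0 fell, where 7.01% of all tested probe sets rose and 6.02% fell. The median log2 change was 0.20 over the 25 genes and 0.03 over all tested probe sets. In 14 genes every OBX day 7 array was above every untreated array, as in 23.7% of all tested probe sets. Rpl13a rose by 1.09 ± 0.15 (adjusted p 0.00033 by limma) and Rps19 by 0.80 ± 0.23 (adjusted p 0.033). Rpl10a rose by 0.39 ± 0.10 (adjusted p 0.024) and Rpl6 by 0.33 ± 0.10 (adjusted p 0.043). Rpl22, an RNA-binding protein that mice can live without, rose by 0.37 ± 0.10 (adjusted p 0.026). The second probe set of Rpl10a did not pass at day 7 (0.33 ± 0.12, adjusted p 0.0734 by limma). For Rps28 the second probe set passed (0.33 ± 0.10, adjusted p 0.047) and the brightest did not (0.16 ± 0.10, adjusted p 0.3).

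Rpl22 read 2055.9, 2205.1 and 2043.1 in untreated mice and 2570.9, 2829.1 and 2748.9 at OBX day 7. These groups did not overlap, while the OBX day 1 arrays (2141.9, 2026.0 and 2149.1) overlapped the untreated ones, and the second of them was the lowest of all 15. Rpl6 read 13484.0, 14781.7 and 15606.5 in untreated mice and 18558.3, 18403.1 and 18170.1 at OBX day 7. All OBX day 7 arrays of Rpl6 were above all untreated arrays and close to each other. Genes that rose at day 5 but did not pass at day 7 included Rps10 (0.24 ± 0.14, adjusted p 0.29), Rps18 (0.20 ± 0.09, adjusted p 0.16) and Rplp0 (0.23 ± 0.10, adjusted p 0.14).

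The count at day 7 moved when single arrays were left out, and so did the calls over the whole array, 978 in the full fit. Of the 25 genes, 1 rose without untreated replicate 1, without untreated replicate 3, without OBX day 7 replicate 2 or without OBX day 7 replicate 3. There were 2 rises without OBX day 7 replicate 1, and 11 without OBX day 5 replicate 1, which enters only through the shared spread. In that order, the calls over the whole array were 592, 621, 592, 626, 559 and 2045. Rpl13a was among the rises each time. With scan day as a block 0 of the 25 genes rose, with 13 calls over the whole array.

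The 3 times after OBX were also set against each other. From OBX day 5 to OBX day 7, 0 of the 25 genes and 0.0% of all tested probe sets passed in limma, with 2 genes, and 8.0% of all tested probe sets, at an unadjusted p under 0.05 and a median of -0.06. In 0 of the 25 genes was every later array above every earlier one (5.14% of all tested probe sets), and in 1 every later array was below (4.98%). From OBX day 1 to OBX day 5, 0 genes fell (3.86% of all tested probe sets), the median was 0.14, and in 8 genes every later array was above every earlier one (12.5% of all tested probe sets). Without OBX day 5 replicate 3, 3 genes passed there, Rpl13a, Rps18 and Rps3, and the calls over the whole array were 658 against 587. Tests of the day 5 change against the day 1 change, and of the day 7 change against the day 5 change, passed for 0 of the 25 genes in limma, where 0.546% of probe sets were higher and 0.932% lower in the first test and 0.0% in the second. Sham and untreated arrays gave 0 calls for the 25 genes and 0.0% over the array, 0 genes at an unadjusted p under 0.05 and a median of 0.02, with every sham array above every untreated array in 1 gene (3.48% of all tested probe sets) and below in 1 (3.77%). The F test over the 5 groups called 9 of the 25 genes (19.3% of all tested probe sets): Rpl10a, Rpl13a, Rpl22, Rpl6, Rps10, Rps18, Rps19, Rps3 and Rps7.

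The summed signal of the ribosomal protein genes made up 1.77% to 1.92% of all signal on untreated arrays and 1.80% to 1.87% on sham arrays. It was 1.95% to 2.03% at OBX day 1, 1.96% to 2.26% at day 5 and 2.01% to 2.15% at day 7, so every OBX array was above every control array in this share. The 33 tested probe sets annotated to a ribosomal protein gene and other genes gave 0 rises at day 1. They gave 14 at day 5 (median 0.29) and 6 at day 7 (median 0.18), with 0 falls at each time. Of all tested probe sets, 1.8%, 11.8% and 7.01% rose at days 1, 5 and 7, and 0.666%, 9.19% and 6.02% fell. Rpsa, a small subunit protein also known as the laminin receptor, lies outside the symbol rule, and it rose by 0.46 ± 0.12 at day 5 (adjusted p 0.0111 by limma). Fau, another small subunit gene outside the rule, had an estimate of -0.48 ± 0.26 (adjusted p 0.214) with present calls on 10 arrays, and the excluded pseudogene Rps4l one of 0.14 ± 0.14 (adjusted p 0.495).

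Other lists of genes for protein synthesis had medians nearer 0 at day 5. Their shares of rises, 5 of 59, 4 of 55, 5 of 40 and 1 of 19, stood beside 11.8% of all tested probe sets, and their shares of falls beside 9.19%. Among 59 tested mitochondrial ribosomal protein genes, 5 rose and 1 fell (median 0.14), with Mrps28 (0.73 ± 0.17, adjusted p 0.0062) and Mrpl54 (0.70 ± 0.18, adjusted p 0.015) up and Mrps31 (-0.50 ± 0.13, adjusted p 0.016) down. Among 55 genes of ribosome biogenesis, 4 rose and 1 fell (median 0.07). Taf1b, a subunit of the factor that places RNA polymerase I on ribosomal DNA, fell by 1.25 (adjusted p 0.0014 by limma), while the nucleolar proteins Nop16 (0.53 ± 0.14, adjusted p 0.015) and Gar1 (0.52 ± 0.14, adjusted p 0.018) rose. Among 40 genes listed as translation factors, with Fau, Tpt1, Naca and Btf3 counted among them, 5 rose and 2 fell (median 0.04). The poly(A)-binding protein gene Pabpc4 (0.81 ± 0.12, adjusted p 0.00033) and the exchange factor subunit Eif2b5 (0.77 ± 0.13, adjusted p 0.0011) rose. So did Eif6 (0.62 ± 0.15, adjusted p 0.0085), which keeps free large subunits apart from small ones. Eef1a1, the main elongation factor, had an estimate near 0 (0.00 ± 0.09, adjusted p 0.998). Among 19 genes listed as aminoacyl-tRNA synthetases, 1 rose, Vars (0.61 ± 0.13, adjusted p 0.0043), with a median of 0.07. The list also holds Aimp1 and Aimp2, which are not synthetases. At day 7 the counts of rises were 0, 3, 3 and 2 in these 4 lists, with 0 falls, and at day 1 no gene of them passed. Of all tested probe sets 7.01% rose and 6.02% fell at day 7.

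**Figure D4:**
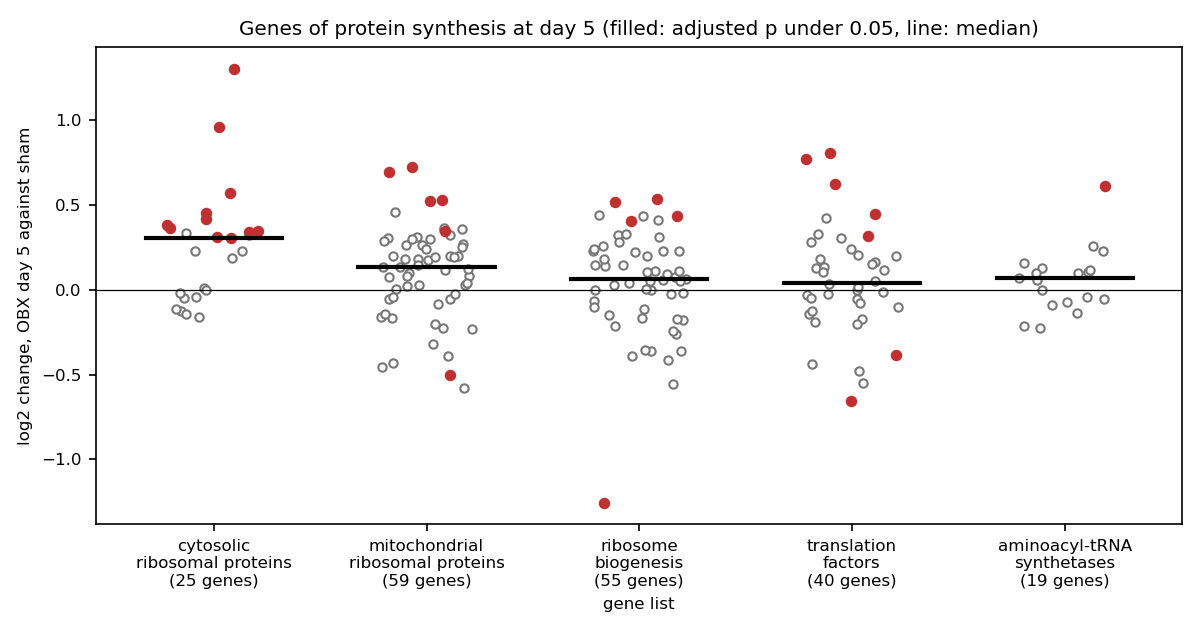
Log2 change at OBX day 5 against sham of each tested gene (points, filled for adjusted p under 0.05 in limma) in 5 lists, with the median as a line. The cytosolic ribosomal protein genes have a median of 0.31, and the other lists have medians of 0.04 to 0.14.

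The tissue was changing in cell makeup at the same time. The 7 measured markers of mature olfactory sensory neurons summed to 118801 to 127120 on sham arrays and 34979 to 55656 at OBX day 5, and 6 of 6 tested fell. Markers of progenitors and cell division (18 measured, Mcm6 never present) summed to 17848 to 19684 on sham arrays and 26405 to 28913 at day 5, with 12 of 17 tested higher and 0 lower. Macrophage markers (15 measured) summed to 20192 to 25149 on sham arrays and 36595 to 39674 at day 5, with 6 of 11 tested higher, and Aif1, Fcer1g and Itgam never present. Of the other lists at day 5, 4 of 9 immature neuron markers rose and 2 fell, 4 of 6 sustentacular and gland markers rose, and 0 of 3 lymphocyte and 0 of 4 erythrocyte markers passed. The erythrocyte sum was 30317 to 49053 on sham arrays and 37007 to 76136 at day 5. At day 7 the neuron sum was 52127 to 56362, the progenitor sum 26696 to 31123 and the macrophage sum 26636 to 29490, and at day 1 they were 92691 to 99176, 17752 to 17986 and 25592 to 26816. At day 1 the share of ribosomal protein signal was above that of every control array. The neuron sum was then below, and the macrophage sum above, every untreated and sham array. The progenitor sum at day 1 lay within the untreated range of 17442 to 18271. The neuron, progenitor and macrophage sums at days 5 and 7 lay outside the untreated and sham ranges, and the part of these cell types in the result was not tested. In a bulk sample more cells of a type and more RNA per cell cannot be told apart.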

How the data were processed

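The authors deposited 1 linear signal intensity for every probe set of an array. Their array software is not given in the sources used here. A trimmed mean of 1500.6 to 1500.7 on every array shows that they were scaled. Detection calls and detection p-values were deposited beside them, and deposited array station settings gave the scan day and a hybridisation date. Arrays that share a hybridisation date are called a fluidics run here, a name that the settings do not give. Signals were raised to a floor of 1 and log2 transformed. Probe sets with a present call on 3 or more of the 15 arrays, 7508 in all, were fitted in limma 3.58.1 (R 4.3.3) with 1 mean per group, moderated variances with a trend (10 residual and 4.52 prior degrees of freedom), two-sided tests and Benjamini-Hochberg adjustment over all of them, at a threshold of 0.05. Log2 changes are given ± moderated SE. The fit was tested on simulated data. OBX days 1 and 7 were compared with untreated mice, since the sham group was taken at day 5.

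The genes, gene lists and naming rule were chosen with earlier results of these data known. Genes named are fixed members, the calls with the smallest adjusted p (up to 6 per direction and comparison, and up to 3 of each list), paralogs, and genes that failed the filter. Rpl8, Rpl41, Rps27, Rpl37a, Rpl7, Rps24, Rps28 and further genes were named after their values were seen. Alternatives covered scaling, filter, floor, probe set choice, control, array weights, batches, the replicate number as a block and each array left out. For arrays, the number of arrays limits the precision.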

Additional observations from a re-analysis of the deposited data

How the results depend on the processing

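The day 5 against sham count of 11 rises was 1 with scan day as a block and 5 to 13 when 1 array was left out. It was 8 with no filter, 8 after quantile normalisation and 9 after median centring with or without the ribosomal protein probe sets. With fluidics run as a random block it was 16, and against untreated 12. With no filter 1 gene fell, Rps13, whose probe set was present on 0 arrays. The day 7 count of 5 rises was 3 with no filter, 8 after quantile normalisation, 2 after median centring with or without the ribosomal protein probe sets, 11 with array weights, 0 with scan day as a block, 17 rises and 1 fall with fluidics run as a random block, 3 against sham, and 1 to 11 when 1 array was left out. The day 1 count of 0 was 1 with array weights, 8 rises and 1 fall with the fluidics block, and 0 to 1 when 1 array was left out. From OBX day 1 to day 5, 1 rise became 2 after quantile normalisation, 6 with the fluidics block and 1 to 3 when 1 array was left out. From OBX day 5 to day 7, the fluidics block gave 2 falls. The F test count of 9 was 5 after median centring (both ways), 0 with the scan block, 18 with the fluidics block and 4 to 13 when 1 array was left out. The difference between the day 5 and day 1 changes called 1 gene with the filter at all 15 arrays, 1 with array weights, 5 with the fluidics block and 0 to 1 when 1 array was left out. Calls over the whole array moved as well. Day 5 gave 1578 in the main fit, 1607 after quantile normalisation, 1535 and 1539 after median centring and 65 with the scan block. In the same order day 7 gave 978, 1072, 865, 864 and 13, and day 1 gave 185, 198, 148, 151 and 50. OBX day 1 to day 5 gave 587, 647, 581, 581 and 116. Such calls are not given for the filter, array weights, fluidics block or F test, so those counts have no such comparison. The fluidics fit used a correlation of -0.25 within a run. The runs lay close to the groups. One of them held only the OBX day 7 arrays, so OBX day 7 cannot be told apart from its run. Another held all OBX day 5 arrays and 1 OBX day 1 array. A further run held all untreated arrays and 1 sham array, and the last held 2 sham and 2 OBX day 1 arrays. The cause of the differences in counts between settings was not tested.

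Deviations of same-numbered arrays correlated from -0.35 to 0.37 (median 0.05, 8 of 30 pairs over 0.1). Those of other-numbered arrays correlated from -0.35 to 0.30 (median -0.02, 10 of 60 pairs over 0.1). Of the 15 arrays, 7 correlated best with their own number. These values do not settle whether the replicate numbers pair the arrays, and the main fit used no pairing. With the replicate block, the day 5 count was 9, the day 7 count 4 and the F test count 5. Without Rps24, or without Rpl39l and Rpl7l1, alternatives chosen after seeing the data, the counts at days 1, 5 and 7 were 0, 11 and 5. Among the 33 genes, no named change that passed the test turned its sign under these alternatives. Named genes outside the 33 were not followed through them. Among named genes that did not pass at day 5, the estimates of Rps3a1 (-0.04 to 0.14), Rpl7 (0.00 to 0.17), Rpl41 (0.01 to -0.09) and Rps24 (-0.02 to 0.04) changed sign without OBX day 5 replicate 1. Every scaling moved the median of all tested probe sets by less than 0.1 on the log2 scale.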
